A study of Mus musculus with 27 samples.

Results

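The Fc-gamma receptors of mouse macrophages are described here through 6 genes: the activating receptors Fcgr1, Fcgr3 and Fcgr4, the signalling chain Fcer1g, the inhibitory receptor Fcgr2b and the neonatal receptor Fcgrt. They were found by matching the identifiers of the count table to these gene symbols, which gave 6 of 41388 identifiers, and all 6 passed the filter on low counts. RNA of sorted dural macrophages was sequenced in 27 libraries from B6 mice that were Rag1 ko and 16 to 19 weeks old. A Rag1 ko mouse makes no mature T or B cells of its own, and this deletion was shared by all 7 groups. In 6 of them, macrophages were sampled 6.5 weeks after transfer of T cells: Tbet ko (2 libraries), IFNg ko (2), IL6Ra ko/IL21R ko (7), IL-17AF ko (2), IL22 ko (3) or total B6 T cells (5). The seventh group, at steady state, received no T cells (6 libraries). Sex was uneven: all Tbet ko, IFNg ko and IL-17AF ko libraries were of females. Females and males numbered 3 and 4 in IL6Ra ko/IL21R ko, 2 and 1 in IL22 ko, 4 and 1 in total T, and 4 and 2 in no T. The knockouts belong to the donor T cells, while the RNA is that of host macrophages, so the counts cannot check them. The labels give one entry for IL6Ra ko/IL21R ko, and whether single T cells lacked both receptors was not stated there; nor were the markers used for sorting.

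Fc-gamma receptors bind the constant part of IgG antibodies. Fcgr1, Fcgr3 and Fcgr4 carry no signalling motif of their own and pair with Fcer1g, the common gamma chain, whose ITAM recruits the kinase Syk. Fcgr2b carries an inhibitory ITIM that recruits the phosphatase encoded by Inpp5d, and the balance of activating and inhibitory receptors sets how a macrophage answers immune complexes. Fcgrt pairs with beta-2 microglobulin (B2m) in endosomes and returns IgG to the cell surface or the blood. Fcgr4 is known in mice as the receptor for IgG2a/c and IgG2b, and interferon-gamma is known to raise several activating receptors in cultured macrophages.

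Library totals ran from 6902602 to 19966749 counts, and the members had between 570 counts (Fcgr4) and 20007 counts (Fcer1g) in a library. The libraries were clustered into 3 sets, a fixed number, by the levels of the single ribosomal protein genes in CPM (counts scaled to library size). The summed level of these genes was 29356 to 35972 CPM in set A, 12547 to 17598 in set B and 8146 to 9593 in set C. Set A held 3 total T and 4 no T libraries, and set B held 6 IL6Ra/IL21R KO, 3 IL22 KO, 2 total T and 2 no T libraries. Set C held both libraries of the Tbet KO, IFNg KO and IL-17AF KO groups and 1 IL6Ra/IL21R KO library, and no total T or no T library. Set and group therefore cannot be told apart where one of these 3 groups is compared with total T or no T. Macrophage markers were abundant in every library, with Csf1r at 2505 to 6044 CPM and Adgre1 at 769 to 2592 CPM. Their level differed between groups. The 6 listed, with Fcgr1 among them, summed to 5141 to 7589 CPM in total T and 7653 to 8513 CPM in no T libraries. Every knockout library lay above all total T libraries, the lowest at 7985 CPM (IL22 KO). In total T against no T libraries 2 of the 6 were higher and 1 lower, beside 21% of all genes called. In bulk samples fewer cells of a type and less RNA per cell cannot be told apart. Whether each library was a separate animal or a pool was not labelled, so the p-values refer to the spread between libraries, which may be partly technical. The column names of the 2 Tbet KO libraries are alike, so both may come from 1 animal, and the Tbet KO means, SDs and tests would then rest on it.

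Fcgr2b, Fcgr4, Fcgr3 and Fcer1g lie near each other on chromosome 1 (GRCm38), with Fcgr2b at chr1:170958617-170976547, Fcgr4 at chr1:171018920-171029761, Fcgr3 at chr1:171051174-171064935 and Fcer1g at chr1:171229572-171234365. Fcgr1 lies at chr3:96282909-96293969 and Fcgrt at chr7:45092990-45103851. Fcgr4 is on the plus strand and the others are on the minus strand. Fcgr2b and Fcgr3 share coding sequence, and their longest identical run is shown because a 75-base read from it cannot be assigned to either gene:
Fcgr2b and Fcgr3: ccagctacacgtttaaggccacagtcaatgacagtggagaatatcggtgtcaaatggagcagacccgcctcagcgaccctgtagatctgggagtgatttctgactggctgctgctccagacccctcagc
The run is 129 bases long and spans exons 3 and 4 of both genes. In Fcgr2b it lies at chr1:170967980-170968081 and chr1:170966674-170966700, and in Fcgr3 at chr1:171057691-171057792 and chr1:171054167-171054193. Of the 75-base windows of their annotated transcripts, 94 of 1733 in Fcgr3 (5.42%) and 94 of 5768 in Fcgr2b (1.63%) were shared between them. Counting every gene of the annotation, 313 windows of Fcgr2b (5.43%) were shared. No window of Fcgr1, Fcgr4, Fcer1g or Fcgrt was shared with another gene of the annotation. The libraries were unstranded, and how reads with several matches were counted is not known here.

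**Figure D1:**
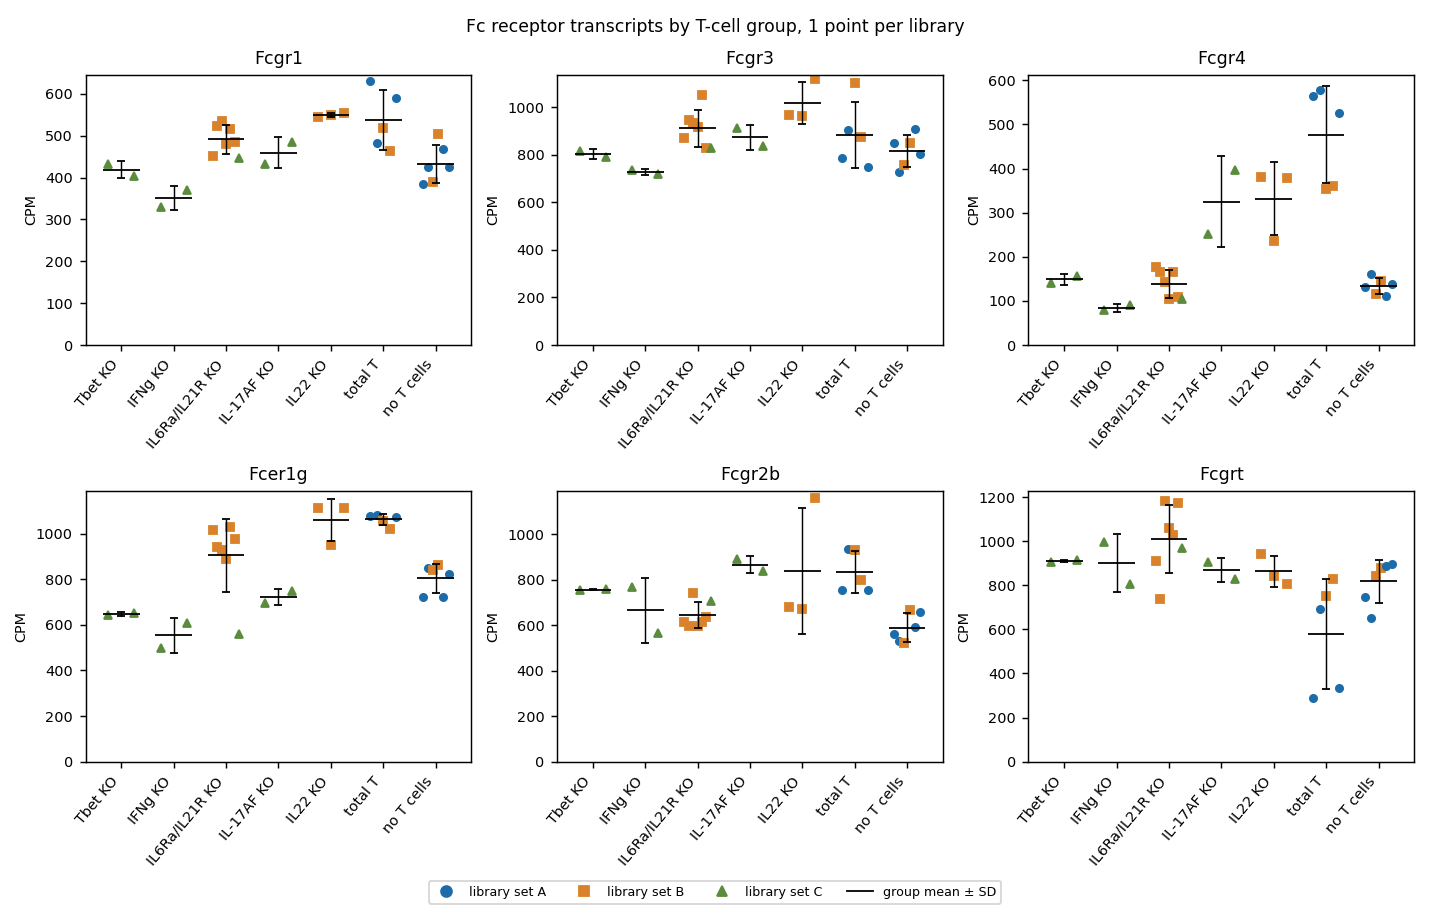
Level of each gene in CPM (y axis) by T-cell group (x axis), with 1 point per library coloured by library set and black bars for the group mean ± SD. Fcgr4 lay between 354 and 578 CPM in total T libraries and between 111 and 162 CPM in no T libraries, while Fcgr3 stayed between 720.2 and 1117 CPM over all libraries.

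Per kilobase of exon, Fcer1g had the highest level of the members, at 1216 ± 28.4 CPM per kb in total T and 919.6 ± 74.4 CPM per kb in no T libraries (SD, n = 5 and n = 6). Fcgr3 followed among the receptors for IgG at the cell surface, with 509 ± 79.1 CPM per kb in total T and 469.9 ± 37.9 CPM per kb in no T libraries. Fcgr4 had 379.7 ± 88.1 CPM per kb in total T and 107 ± 15.1 CPM per kb in no T libraries. Its place among these receptors thus differed between the groups: above Fcgr1 (207 ± 27.6 CPM per kb) in total T libraries, and below Fcgr1 (167 ± 17.7 CPM per kb) in no T libraries. Fcgr2b had 144 ± 15.9 CPM per kb in total T and 102 ± 10.8 CPM per kb in no T libraries, but 236 and 167 CPM per kb when divided by its longest transcript instead of all its exons.

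Of the summed level per kb of Fcgr1, Fcgr2b, Fcgr3 and Fcgr4, Fcgr4 made up 30.5% ± 6.09 in total T and 12.6% ± 1.98 in no T libraries. In the knockout groups its share was 23.6% ± 6.20 in IL-17AF KO, 21.7% ± 4.03 in IL22 KO, 13.6% ± 1.21 in Tbet KO, 11.7% ± 2.23 in IL6Ra/IL21R KO and 9.09% ± 1.05 in IFNg KO libraries. Fcgr3, the low-affinity activating receptor, made up 41.1% ± 6.28 in total T and 55.6% ± 2.60 in no T libraries. The share of Fcgr2b was 11.6% ± 1.08 in total T and 12.04% ± 0.783 in no T libraries. These shares depend on the length used. Divided by the longest transcript, total T libraries had 655 CPM per kb of Fcgr3 and 236 of Fcgr2b. Fcgr4 and Fcgr1 kept their levels, so the share of Fcgr4 would be lower.

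Fcgr4 varied more than any other member, by 7.38-fold between its lowest library (IFNg KO F1) and its highest (total T F2). Libraries are named by group, sex and a running number. In total T libraries it stood at 566, 578, 354, 361 and 525 CPM. In IL22 KO libraries it had 381, 236 and 378 CPM, and in IL-17AF KO libraries 253 and 398 CPM. These 3 groups overlapped each other and lay above all other libraries of the study. Fcgr4 had 141 and 157 CPM in Tbet KO libraries and 78.3 and 89.8 CPM in IFNg KO libraries. In IL6Ra/IL21R KO libraries the lowest, median and highest values were 104, 143 and 178 CPM, and in no T libraries 111, 135 and 162 CPM. The Tbet KO and IL6Ra/IL21R KO libraries overlapped the no T libraries, while both IFNg KO libraries lay below every other library.

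Across the 7 groups, 4 of the 6 members differed in a joint test (edgeR's quasi-likelihood test, Benjamini-Hochberg adjustment), where 38.3% of all genes tested were called. Fcgr4 had the lowest p of the 12682 genes tested (adjusted p = 1.1e-06). Fcer1g (adjusted p = 0.000291), Fcgr1 (adjusted p = 0.00449) and Fcgr2b (adjusted p = 0.00667) were also called. Fcgr3 (adjusted p = 0.111) and Fcgrt (adjusted p = 0.0812) were not called. No member was called between males and females, where 0.0552% of genes were called, and the largest difference there was -0.12 ± 0.14 for Fcgr4 (log2, males minus females).

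With total T cells against no T cells, Fcgr4, Fcgr2b, Fcer1g and Fcgr1 rose, 4 of 6 members, beside 21% of all genes called. The largest change was that of Fcgr4, 1.82 ± 0.18 on the log2 scale (SE; adjusted p = 5.32e-06, edgeR), the lowest p of all genes in this comparison. The inhibitory receptor Fcgr2b rose by 0.52 ± 0.12 (adjusted p = 0.00382), with 754, 937, 931, 799 and 754 CPM in total T libraries against 523 to 669 CPM (median 579) in no T libraries, so the groups did not overlap. The chain Fcer1g rose by 0.39 ± 0.11 (adjusted p = 0.0147), with 1021 to 1080 CPM in total T and 721 to 864 CPM (median 832) in no T libraries. Fcgr1, the high-affinity receptor for IgG, rose by 0.32 ± 0.09 (adjusted p = 0.0172), but total T libraries at 463 to 631 CPM overlapped no T libraries at 385 to 504 CPM. Fcgr3 had 747 to 1099.7 CPM in total T and 729 to 906 CPM in no T libraries, a difference of 0.11 ± 0.10 (adjusted p = 0.435). The median over the 6 members was 0.355, against -0.02 over all genes.

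The call of Fcgr1 did not hold without total T M1 (adjusted p = 0.0885), total T F1 (adjusted p = 0.0652) or no T F3 (adjusted p = 0.051), and that of Fcer1g not without total T M1 (adjusted p = 0.0564, all edgeR). The calls of Fcgr4 and Fcgr2b held without each of the 11 libraries. Markers of monocyte-derived cells moved with these genes: all 6 rose in total T against no T libraries, and their sum was 1681 to 5615 CPM in total T and 722 to 1221 CPM in no T libraries. All 6 markers of border macrophages fell, with sums of 818 to 3902 CPM in total T and 4729.7 to 7142 CPM in no T libraries. Neutrophils and NK cells also carry Fc-gamma receptors: neutrophil markers summed to 9.9 to 239 CPM in total T and 0 to 2162 CPM in no T libraries, and NK cell markers to at most 5.81 CPM in any library. The part of these cells in the Fc receptor differences was not tested.

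Fcgrt was the member with the opposite sign, at 288, 692, 749.96, 828 and 335 CPM in total T libraries against 653, 859 and 898 CPM (lowest, median, highest) in no T libraries. Total T F1 and total T M1 stood far below all other libraries of the study, and the other 3 total T libraries lay within the range of the no T libraries. The difference was -0.51 ± 0.21 (log2; adjusted p = 0.0809, edgeR), which is not called. It was called with the library set as a further term (-0.57 ± 0.18, adjusted p = 0.0239, edgeR), by DESeq2, and by edgeR without total T F3 (adjusted p = 0.0365) or without total T F4 (adjusted p = 0.0174).

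Against total T cells, 3 of 6 members differed in the IL6Ra/IL21R KO group, beside 28.1% of all genes. Fcgr4 fell by 1.75 ± 0.18 on the log2 scale (adjusted p = 2e-06, edgeR), with no overlap between the groups. Fcgr2b fell by 0.42 ± 0.12 (adjusted p = 0.0119), to 596 to 741 CPM in IL6Ra/IL21R KO libraries against 754 to 937 CPM in total T libraries. Fcgrt rose by 0.82 ± 0.21 (adjusted p = 0.00506), with 739 to 1182 CPM (median 1029) in IL6Ra/IL21R KO libraries, a range that overlapped that of total T. Without each of the 12 libraries in turn all 3 calls held, and Fcgrt kept a difference of at least 0.59. With the library set as a further term the calls of Fcgr4 and Fcgr2b held and that of Fcgrt did not, at 0.52 ± 0.23 (adjusted p = 0.132, edgeR). Monocyte-derived markers moved alongside, with 6 of 6 lower and sums of 381 to 1078 CPM in IL6Ra/IL21R KO libraries, and 6 of 6 border macrophage markers were higher. The 6 neutrophil markers tested were lower too, and the part of these cells was not tested. Against no T cells this group had 0 of 6 members called, beside 1.16% of all genes, and 0 also by DESeq2 or at an unadjusted p under 0.05. The groups overlapped for each member.

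T-bet drives the T helper 1 fate, whose cells are a main source of interferon-gamma. With Tbet KO and with IFNg KO T cells Fcgr4 was low as well. In IFNg KO against total T libraries 3 of 6 members fell, beside 36.8% of all genes: Fcgr4 by 2.53 ± 0.29, Fcer1g by 0.95 ± 0.17 and Fcgr1 by 0.61 ± 0.13 (log2; adjusted p = 3.64e-06, 0.000172 and 0.00124, edgeR). In Tbet KO against total T libraries the same 3 members fell, beside 29.9% of all genes: Fcgr4 by 1.71 ± 0.27, Fcer1g by 0.73 ± 0.16 and Fcgr1 by 0.35 ± 0.13 (adjusted p = 0.00014, 0.00206 and 0.0453, edgeR). Of the 6 monocyte-derived markers, 5 fell in each comparison, while border macrophage markers rose in 6 of 6 in IFNg KO and 5 of 6 in Tbet KO libraries. All 6 fibroblast markers rose in both groups, against total T and against no T libraries, and the part of these cells was not tested. The call of Fcgr1 in Tbet KO did not hold without 5 of the 7 libraries (Tbet KO F1 or F2, total T F1, F3 or M1), with adjusted p from 0.0624 to 0.252. Against no T cells 0 of 6 members were called in the Tbet KO group, beside 7.2% of all genes, and 0 by DESeq2, with 2 at an unadjusted p under 0.05. In the IFNg KO group 1 member was called against no T cells, beside 13.6% of all genes: Fcer1g fell by 0.56 ± 0.16 (adjusted p = 0.0258, edgeR), a call that did not hold without IFNg KO F1 (adjusted p = 0.363). Fcgr4 differed there by -0.71 ± 0.26 (adjusted p = 0.066, edgeR). Between the Tbet KO and IFNg KO groups 0 of 12682 genes were called, against 444 at an unadjusted p under 0.05 and 47 by DESeq2. Fcgr4 was among the 444, at 0.82 ± 0.30 (adjusted p = 1).

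In the IL-17AF KO and IL22 KO groups Fcgr4 was high. In IL-17AF KO against no T libraries 2 of 6 members rose, beside 5.96% of all genes: Fcgr4 by 1.24 ± 0.23 and Fcgr2b by 0.60 ± 0.16 (log2; adjusted p = 0.00531 and 0.0327, edgeR). The call of Fcgr4 did not hold without IL-17AF KO F2 (adjusted p = 0.22). The call of Fcgr2b did not hold without IL-17AF KO F1 (adjusted p = 0.232), IL-17AF KO F2 (adjusted p = 0.223) or no T F2 (adjusted p = 0.0594), nor with the library set as a further term (0.44 ± 0.29, adjusted p = 0.902). Against total T cells Fcer1g fell by 0.57 ± 0.16 in IL-17AF KO libraries (adjusted p = 0.0128, edgeR), 1 of 6 members beside 25.1% of all genes, and not without IL-17AF KO F1 (adjusted p = 0.142) or F2 (adjusted p = 0.0706). Fcgr4 differed there by -0.58 ± 0.26 (adjusted p = 0.0988).

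In IL22 KO against no T libraries Fcgr4 was 1 of 6 members called, and the only gene called of 12682 (0.00789%), at 1.32 ± 0.20 (log2; adjusted p = 0.0115, edgeR). It was also the only gene called between the IL22 KO and IL6Ra/IL21R KO groups (0.00789%), at 1.24 ± 0.20 (adjusted p = 0.0174). All 3 IL22 KO libraries lay above every library of either group. That no other gene was called did not hold by DESeq2, which called 210 and 173 genes in these comparisons, or with no filter on low counts, which left 499 and 558 genes called. The first call did not hold without IL22 KO M1 (adjusted p = 0.476), IL22 KO F1 (adjusted p = 0.135), no T F3 (adjusted p = 0.068) or no T M1 (adjusted p = 0.0587). The second did not hold without IL22 KO M1 (adjusted p = 0.943), IL22 KO F1 (adjusted p = 0.0767) or IL6Ra/IL21R KO M3, M1 or F3 (adjusted p from 0.051 to 0.0554). In females alone neither was called, at 1.16 ± 0.23 (adjusted p = 0.213) and 0.92 ± 0.25 (adjusted p = 0.696, edgeR). Against total T cells 0 of 6 members were called in the IL22 KO group, beside 0.0867% of all genes, and 0 by DESeq2, with 2 at an unadjusted p under 0.05. The difference of Fcgr4 there was -0.50 ± 0.22 (adjusted p = 0.226, edgeR).

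Among the 3 groups of set C, which share their library set, Fcgr4 was higher in IL-17AF KO than in IFNg KO libraries by 1.95 ± 0.31 (log2; adjusted p = 0.017, edgeR). This was 1 of 6 members and 1 of 2 genes called (0.0158%), the other being Nmrk1, a kinase of NAD synthesis, named after its value was seen. The call did not hold without IL-17AF KO F2 (adjusted p = 0.617) or IFNg KO F1 (adjusted p = 1). Against the Tbet KO group Fcgr4 in IL-17AF KO libraries stood higher by 1.13 ± 0.30 (adjusted p = 1, edgeR). In that comparison 0 of 12682 genes were called, with 180 at an unadjusted p under 0.05 and 38 called by DESeq2. Markers of monocyte-derived cells summed to 531 and 569.7 CPM in IL-17AF KO, 410.2 and 459 CPM in Tbet KO and 363 and 365 CPM in IFNg KO libraries, below all no T libraries. Neutrophil markers summed to 72.7 and 84.1 CPM in IL-17AF KO, 0.9 and 35.9 CPM in Tbet KO and 0 and 21.6 CPM in IFNg KO libraries, and their part in the difference was not tested. In IL22 KO libraries the sum of monocyte-derived markers was 929.8 to 1424 CPM. This range overlapped no T and IL6Ra/IL21R KO libraries (381 to 1078 CPM for the last). Of the 6 markers, 0 were called against either group, beside 0.00789% of all genes in each comparison.

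**Figure D2:**
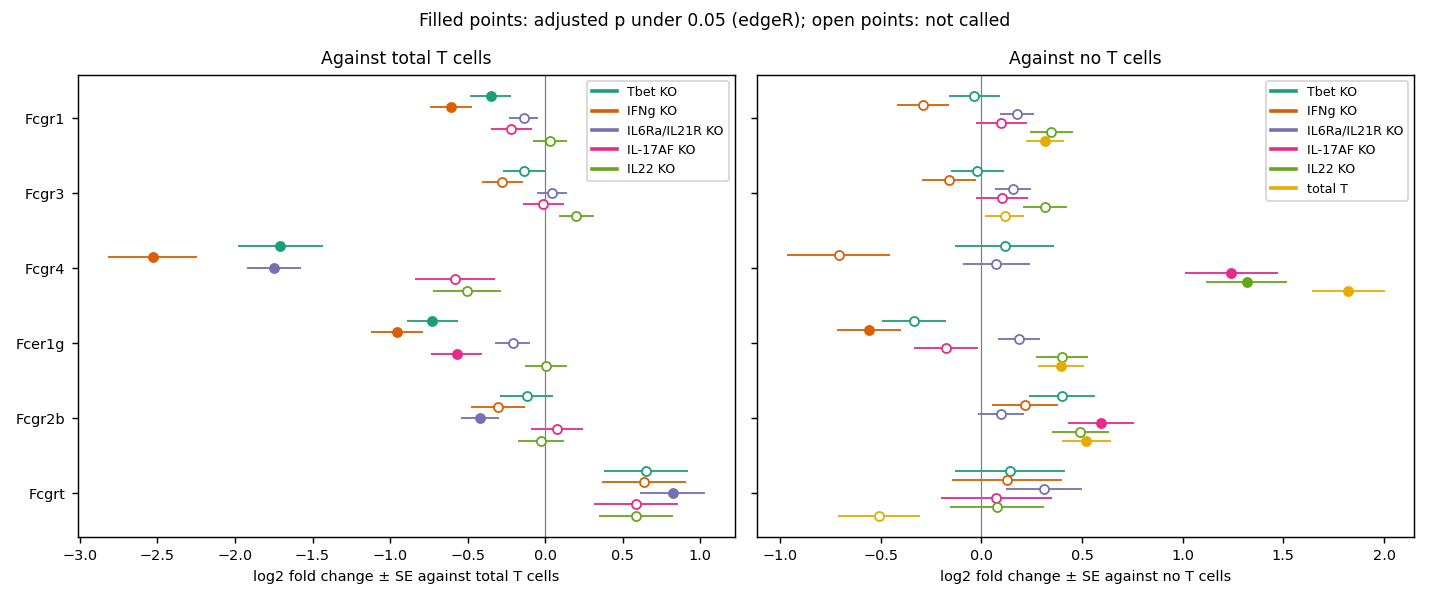
Log2 fold change ± SE of each gene (x axis) for each T-cell group against total T cells (left) and against no T cells (right), filled where the adjusted p was under 0.05. Fcgr4 moved furthest, from -2.53 in IFNg KO against total T to 1.82 in total T against no T, and the comparisons within a panel share the libraries they are set against.

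Members were also compared inside single library sets. With set A alone, Fcgr4 was higher in total T than in no T libraries by 1.99 ± 0.13 (log2; adjusted p = 0.000266, edgeR), and with set B alone by 1.45 ± 0.26 (adjusted p = 0.0296). Of 6 members, 3 were called in set A beside 16.2% of all genes, and 1 in set B beside 0.745%. The levels were 525 to 578 CPM in 3 total T and 111 to 162 CPM in 4 no T libraries of set A. The libraries of set B had 354 and 361 CPM with total T cells and 115 and 145 CPM with none. The difference between the 2 effects was 0.54 ± 0.22 (adjusted p = 0.45), and 0 of 12797 genes were called in that test, with 1276 at an unadjusted p under 0.05. Fcer1g and Fcgr2b were called in set A (0.45 ± 0.11 and 0.47 ± 0.14; adjusted p = 0.0296 and 0.0463) and not in set B (0.27 ± 0.12 and 0.53 ± 0.21; adjusted p = 0.282 and 0.227). Fcgr1 differed by 0.425 ± 0.13 in set A and 0.12 ± 0.14 in set B (adjusted p = 0.0588 and 0.724).

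Within set B, Fcgr4 fell in IL6Ra/IL21R KO against total T libraries by 1.23 ± 0.22 (adjusted p = 0.0045; 1 of 6 members, beside 6.7% of all genes) and rose in IL22 KO against IL6Ra/IL21R KO libraries by 1.18 ± 0.18 (adjusted p = 0.00706, edgeR; 1 of 6 members, beside 1.35%). In IL22 KO against no T libraries of set B it differed by 1.40 ± 0.25 (adjusted p = 0.069), and 0 of 6 members were called, beside 0.0162%. Fcgrt differed in IL6Ra/IL21R KO against total T libraries of set B by 0.32 ± 0.16 (adjusted p = 0.284) and Fcgr2b by -0.54 ± 0.18 (adjusted p = 0.0848). Within the females of set C, Fcgr4 was higher in IL-17AF KO than in IFNg KO libraries by 1.93 ± 0.21 (adjusted p = 0.037, edgeR; 1 of 6 members, beside 0.0243%), a split chosen after seeing the data.

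**Figure D3:**
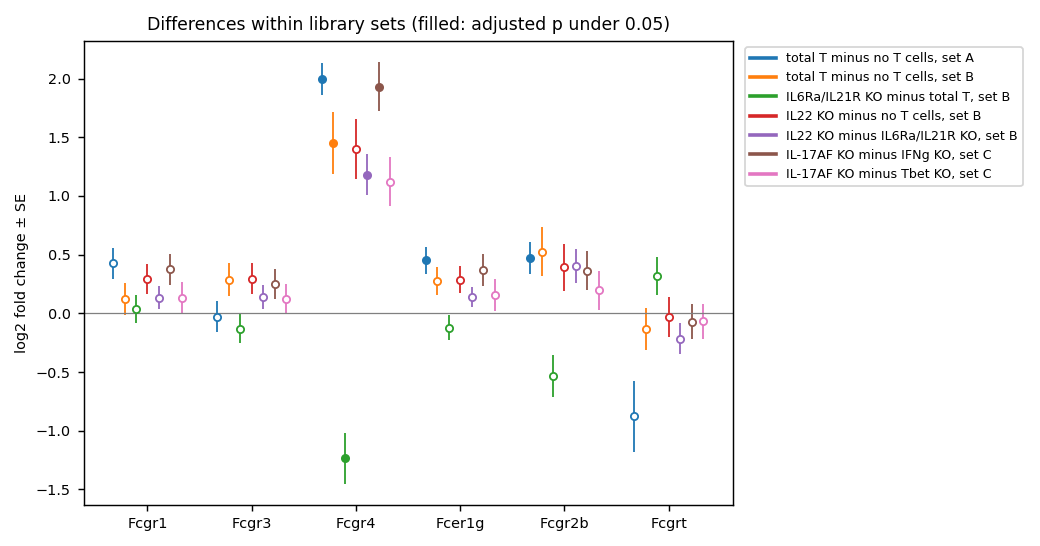
Log2 fold change ± SE (y axis) of each gene (x axis) in 7 comparisons made within a single library set, filled where the adjusted p was under 0.05. Fcgr4 passed in both sets for total T minus no T, at 1.99 (set A) and 1.45 (set B).

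The level of Fcer1g moved with the library set, though sets A and C overlapped. It was 499.8 to 748 CPM in the 7 libraries of set C, against 842 to 1114 CPM in set B and 721 to 1080 CPM for set A. In the IL6Ra/IL21R KO group alone, libraries came from both sets B and C: the one of set C had 558 CPM and the 6 of set B had 889 to 1029 CPM. With the library set as a further term in the model, none of the 4 calls of Fcer1g in the Tbet KO, IFNg KO and IL-17AF KO groups held. Calls over all genes against total T fell with this term as well. They fell to 6 in place of 3796 in Tbet KO, 48 in place of 4667 in IFNg KO and 3 in place of 3178 in IL-17AF KO. The difference of Fcer1g against total T was then 0.05 ± 0.18 in Tbet KO (adjusted p = 0.985), -0.18 ± 0.18 in IFNg KO (adjusted p = 0.754) and 0.20 ± 0.18 in IL-17AF KO (adjusted p = 0.94, edgeR). The effect of set C in that model rests on 1 library, IL6Ra/IL21R KO M4, against the 6 of its group in set B. No other group joins set C to a further set. The calls lost and kept with this term in Tbet KO, IFNg KO and IL-17AF KO against total T or no T all depend on that library. The same term left Fcgr4 called in IFNg KO against total T (-1.88 ± 0.37, adjusted p = 0.0241) and in IL-17AF KO against no T (1.88 ± 0.39, adjusted p = 0.0373). It left Fcgr4 not called in Tbet KO against total T (-1.06 ± 0.37, adjusted p = 0.278). Neither call of Fcgr1 against total T held, at -0.40 ± 0.21 in IFNg KO (adjusted p = 0.471) and -0.14 ± 0.21 in Tbet KO (adjusted p = 0.922, edgeR). Fibroblast markers summed to 2277 to 3889.6 CPM in set C and to 220 to 1495 CPM elsewhere, and their part in the levels was not tested.

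For the other receptors the order of the group means spanned less. Fcgr1 ran from 550.02 ± 4.06 CPM in IL22 KO (n = 3) to 351 ± 28.9 CPM in IFNg KO libraries (n = 2), a 1.57-fold span. Of groups next to each other in its order, only Tbet KO and IFNg KO did not overlap. Fcgr3 ran from 1016 ± 87.2 CPM in IL22 KO to 729 ± 12.05 CPM in IFNg KO, a 1.39-fold span. Among neighbours in its order only Tbet KO and IFNg KO did not overlap, and Fcgr3 was called in none of the 15 comparisons between groups. Fcgr2b ran from 866 ± 36.5 CPM in IL-17AF KO to 590.2 ± 62.4 CPM in no T libraries (n = 6), with overlap between all neighbours in the order. IL22 KO M1, at 1158 CPM, had the highest Fcgr2b level of all libraries, while the other 2 IL22 KO libraries had 681 and 672 CPM. Fcer1g ran from 1062 ± 24.8 CPM in total T (n = 5) to 553 ± 75.9 CPM in IFNg KO libraries, and its 3 lowest groups, IL-17AF KO, Tbet KO and IFNg KO, did not overlap each other. Fcgrt ran from 1009 ± 155 CPM in IL6Ra/IL21R KO (n = 7) to 579 ± 249 CPM in total T libraries.

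The activating receptors were set against Fcgr2b within each library as a log2 ratio of CPM, which does not depend on scaling between libraries. These CPM were not divided by gene length, and Fcgr2b has 5790 exon bases against 1256 for Fcgr4. The ratios therefore compare groups and do not rank the receptors. Fcgr4 over Fcgr2b stood at -0.41, -0.70, -1.39, -1.15 and -0.52 in total T libraries, against -2.42, -2.20 and -1.72 (lowest, median, highest) in no T libraries. The groups did not overlap. Their mean log2 ratios, turned back into ratios, were 0.561 in total T and 0.226 in no T libraries. The mean log2 ratio was -1.32 ± 0.42 in IL22 KO and -1.45 ± 0.52 in IL-17AF KO libraries (SD, n = 3 and n = 2). It was -2.24 ± 0.40 in IL6Ra/IL21R KO, -2.35 ± 0.11 in Tbet KO and -2.97 ± 0.45 in IFNg KO libraries. All Tbet KO, IFNg KO and IL-17AF KO libraries were of set C, so set and group cannot be told apart in these ratios either. IL6Ra/IL21R KO M4, the library of that group in set C, had the lowest ratio of its group, at -2.77.

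Fcgr3 over Fcgr2b went the other way between total T and no T, at 0.07 ± 0.12 in total T and 0.47 ± 0.13 in no T libraries (SD, n = 5 and n = 6). The highest total T library, at 0.24, lay below the lowest no T library, at 0.28. IL6Ra/IL21R KO libraries had 0.50 ± 0.20, and the 4 libraries of the IL-17AF KO and Tbet KO groups lay between -0.01 and 0.11. Fcgr1 over Fcgr2b was -0.64 ± 0.31 in total T and -0.45 ± 0.12 in no T libraries, with overlap. For both ratios IL6Ra/IL21R KO M4 of set C was again the lowest of its group, at 0.22 for Fcgr3 and -0.67 for Fcgr1. Against the inhibitory receptor, Fcgr4 thus stood higher in total T than in no T libraries, Fcgr3 stood lower, and Fcgr1 did not separate the groups. These ratios were described and not tested.

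**Figure D4:**
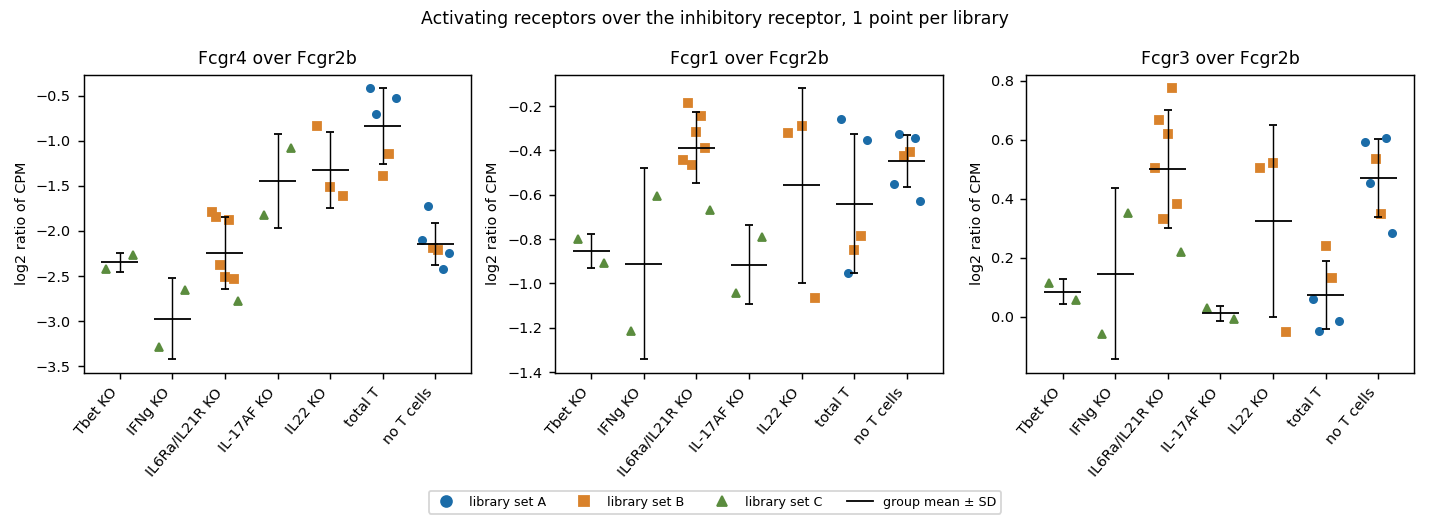
Log2 ratio of the CPM of Fcgr4, Fcgr1 and Fcgr3 over that of Fcgr2b (y axes, not starting at 0) by T-cell group, with 1 point per library and bars for the mean ± SD. Fcgr4 over Fcgr2b lay between -1.39 and -0.41 in total T and between -2.42 and -1.72 in no T libraries.

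Among 10804 genes with a count in every library, the 3 whose log2 CPM over the 27 libraries was most like that of Fcgr4 were Mpeg1 (Pearson r = 0.959), Klra2 (r = 0.957) and Tap1 (r = 0.949). Mpeg1 encodes the pore-forming perforin-2 of macrophages and Tap1 a subunit of the peptide transporter for MHC class I. As deviations from the group means the r values were 0.878 for Mpeg1, 0.762 for Klra2 and 0.80 for Tap1. Among the members, the r of Fcgr4 was 0.67 with Fcgr1, 0.663 with Fcer1g, 0.627 with Fcgr2b, 0.321 with Fcgr3 and -0.611 with Fcgrt. As deviations from the group means these were 0.367, 0.554, 0.006, -0.125 and -0.469, in the same order.

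Fcer1g was most like Cdc42 (r = 0.954), Ndufb5 and Arpc4 (both r = 0.939), a GTPase, a respiratory chain subunit and an actin nucleation subunit. Fcgrt was most like Timp2 (r = 0.951), Scamp5 (r = 0.941) and Hfe (r = 0.935), of which Hfe encodes another MHC class I-like protein that binds B2m. The rank correlations of these 3 with Fcgrt were lower, from 0.669 to 0.808. Fcgr2b was most like Nceh1 (r = 0.802), Galnt6 (r = 0.767) and the chemokine gene Ccl8 (r = 0.758). Fcgr1 was most like Rap2c (r = 0.834), Tmbim6 (r = 0.832) and Psmb4 (r = 0.827), and Fcgr3 like Gdi2 (r = 0.785), Ids (r = 0.737) and Otulinl (r = 0.721). All these values describe 27 libraries that share groups, sets and depth.

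The promoters of Fcgr4 and Fcgr1 are shown because these activating receptors both rose with total T cells. Their letters are from RefSeq (GRCm38.p6), the 130 bases before the annotated start on the coding strand, with motif matches in capitals:
Fcgr4 (chr1:171018796-171018925, plus strand): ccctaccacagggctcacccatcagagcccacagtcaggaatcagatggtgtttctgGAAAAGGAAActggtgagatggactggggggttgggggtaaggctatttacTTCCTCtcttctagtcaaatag
Fcgr1 (chr3:96293970-96294099, minus strand): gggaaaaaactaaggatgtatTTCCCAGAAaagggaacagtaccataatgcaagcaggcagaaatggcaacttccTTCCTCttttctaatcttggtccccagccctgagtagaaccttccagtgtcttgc
The motifs were searched on both strands from 250 bases before to 50 bases after the start. GAAA, any 2 bases and GAAA again, letters of the interferon-stimulated response element, matched in Fcgr4 at -73 to -64 and in 3.44% of 32851 promoters. TTCNNNGAA, letters of the GAS element, matched in Fcgr1 at -109 to -101 and in 8.30% of promoters. GAGGAA, a core of PU.1 sites, matched on the minus strand (TTCCTC) in Fcgr4, Fcgr1 and Fcgr3 and in 28.3% of promoters. No motif searched matched in the promoters of Fcgr2b, Fcer1g or Fcgrt. The matched stretches did not overlap, and a match describes letters, not a bound site.

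Downstream of the receptors, 9 of 18 kinases and adaptors of activating Fc receptor signalling rose in total T against no T libraries and 1 fell, beside 21% of all genes called, with a median of 0.354 against -0.02 over all genes. Plcg2, the phospholipase that opens calcium signalling, rose by 0.83 ± 0.12 (log2; adjusted p = 4.44e-05, edgeR), with 235 ± 46.6 CPM in total T and 134 ± 18.3 CPM in no T libraries. The Src-family kinase Fgr rose by 2.66 ± 0.45 (adjusted p = 0.000214), and the exchange factor Vav1 by 0.47 ± 0.09 (adjusted p = 0.000469). In IL6Ra/IL21R KO against total T libraries 11 of the 18 fell and 1 rose, beside 28.1% of all genes called, with Plcg2 at -1.12 ± 0.11, Fgr at -2.82 ± 0.43 and the PI3-kinase subunit Pik3cd at -0.55 ± 0.09 (adjusted p from 2e-06 to 5.72e-05, edgeR). In IL22 KO against no T libraries 0 of the 18 were called, beside 0.00789% of all genes. Their median there was 0.167, against -0.003 over all genes.

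Of 11 inhibitors of this signalling, 2 rose with total T cells and 0 fell, with a median of 0.033, a share near the 21% of all genes called. They were the phosphatase gene Ptpn6, at 0.66 ± 0.13, and the ubiquitin ligase gene Cblb, at 0.54 ± 0.15 (log2; adjusted p = 0.000775 and 0.0108, edgeR). Of 11 other inhibitory receptors with ITIMs that were tested, 5 rose and 0 fell beside the same 21%, among them Pirb by 1.68 ± 0.21, Cd300lf by 3.49 ± 0.54, Pilra by 1.46 ± 0.25 and Lair1 by 0.93 ± 0.19 (adjusted p from 1.96e-05 to 0.00114). In IL6Ra/IL21R KO against total T libraries 5 of these ITIM receptors fell and 1 rose, and of the 11 inhibitors 2 fell and 1 rose, beside 28.1% of all genes called.

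Other receptors that use Fcer1g include the lectins Clec4e and Clec4d, which sense microbial glycolipids and dead cells. Clec4e rose by 3.32 ± 0.41 and Clec4d by 3.10 ± 0.63 with total T cells (log2; adjusted p = 1.96e-05 and 0.00115, edgeR), 2 of the 4 genes of this list that were tested, beside 21% of all genes called. Clec4e had 248 ± 158 CPM in total T, 14.5 ± 7.23 CPM in IL6Ra/IL21R KO and 24.5 ± 9.24 CPM in no T libraries (SD, n = 5, n = 7 and n = 6). Of 10 genes around Tyrobp, the related ITAM chain, 4 rose and 2 fell beside the same 21%, with Trem1 at 3.18 ± 0.74, Sirpb1a at 1.83 ± 0.31, Clec5a at 1.08 ± 0.23 and Siglech at -2.70 ± 0.37. Of the Fc receptor-like genes, Fcrlb rose by 2.22 ± 0.59 and Fcrls fell by 1.93 ± 0.34 (adjusted p = 0.00864 and 0.000299). B2m, the partner of Fcgrt, rose by 0.64 ± 0.12 with total T cells (adjusted p = 0.000727) and fell by 0.59 ± 0.12 in IL6Ra/IL21R KO against total T libraries (adjusted p = 0.000655). In both comparisons the difference of Fcgrt had the opposite sign.

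Of 10 genes of interferon-gamma signalling, 6 rose and 0 fell with total T cells, beside 21% of all genes called, with a median of 0.922. Gbp2 rose by 3.09 ± 0.38, Cxcl9 by 4.41 ± 0.69 and Jak2 by 1.41 ± 0.23 (log2; adjusted p from 1.96e-05 to 0.000182, edgeR). In IL22 KO against no T libraries, where Fcgr4 was called, Gbp2 differed by 1.39 ± 0.41 and was not called (adjusted p = 0.18). In IFNg KO against no T libraries Gbp2 differed by -0.05 ± 0.50 (adjusted p = 0.961), beside -0.71 ± 0.26 for Fcgr4.

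IgG, which these receptors bind, comes from B cells, and Rag1 ko hosts make no mature B cells of their own. Transcripts of the kappa light chain gene Igkc were counted in all 5 total T libraries, at 4 to 609 counts, and in 0 of 6 no T libraries. They were also counted in 2 of 3 IL22 KO libraries (up to 7 counts), 1 of 2 IL-17AF KO (4 counts), 1 of 7 IL6Ra/IL21R KO (4 counts) and no Tbet KO or IFNg KO library. Ighg2b, the gene of an IgG heavy chain that Fcgr4 binds, had 9 and 730 counts in total T F1 and F2 and 0 in the other 3, and Ighg2c had 30 and 65 counts in total T F2 and M1. Both genes were at 0 in all no T libraries. Ighm, which is transcribed from the unrearranged locus too, had 1506 to 9272 counts in all 27 libraries. What the Ig counts share with the levels of Fcgr4 was not tested.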

How the data were processed

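RNA of sorted dural macrophages was measured in 27 libraries by unstranded single-end sequencing of 75-base reads. The authors' deposited table holds a whole-number count per gene and library. The submitters' processing notes name STAR 2.4.0j, featureCounts, DESeq2 1.20.0 and GRCm38. The table's name calls the values normalized, but they were whole numbers with library totals from 6902602 to 19966749, and they were used as raw counts. Among 52 pairs of libraries of a group, the smallest chi-square per degree of freedom was 8.97, and that of the Tbet KO pair was 11.66, so none was counted as 1 library deposited again. No column was left unmapped.

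The filter on low values kept the 12682 of 41388 genes whose normalized counts averaged 10 or more. Counts were scaled by TMM, and one model with group and sex was fitted to all 27 libraries with edgeR 4.0.16 (quasi-likelihood test, Benjamini-Hochberg adjustment, adjusted p under 0.05 called; R 4.3.3, limma 3.58.1). All 15 comparisons between groups share this estimate of spread, and many share libraries. CPM of members used TMM-scaled totals, and sums of cell type markers used plain totals. Gene coordinates and lengths came from GENCODE M21, promoters from RefSeq. On simulated counts for total T against no T with 12682 genes, 85 of 100 genes changed by 1 (log2) and 100 of 100 changed by 2 were called. The simulation gave every gene the same dispersion and no effect of library set or sex, so these rates need not hold for the data. Tables were made with Python 3.11.15, pandas 2.3.3 and SciPy 1.17.1.

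The members and lists were chosen with earlier results of these data known. Text names all 6 members and, from each list, at most the 4 called genes of lowest p in a comparison, with the 3 genes most like each member among tested genes with a count in every library. Some genes that this rule names are not reported here. Nmrk1, the values of a list's genes in other comparisons and the immunoglobulin counts were chosen after values were seen. Alternatives were DESeq2 1.42.0, its size factors, no filter, no sex term, females only, the compared groups alone, the library set as a term or alone, and each library left out. Library sets were found from ribosomal protein genes and are not labelled by the submitters.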

Additional observations from a re-analysis of the deposited data

Results flagged for a closer look

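The library IL6Ra/IL21R KO M4 had 558.41 CPM of Fcer1g, far from the other 6 libraries of its group, of which the nearest had 889.39 CPM. The gap was 0.704 of the group's range. It was the only flag in 27 sets of values examined, each of 1 measure in 1 group of 4 to 10 libraries, and chance flags about 1 in 20. This library is also the only one of its group in library set C, whose other 6 libraries had 499.8 to 748 CPM. The part of the set in this level was not tested.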

How the results depend on the processing

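No paired analysis was possible because no column of the table can be tied to the replicate number in a title. Of the 20 member differences called, Fcgr4 kept its call under every alternative in total T minus no T (1.45 to 1.99 on the log2 scale), IL6Ra/IL21R KO minus total T (-1.84 to -1.23) and IFNg KO minus total T (-2.63 to -1.88). Over 1596 alternative values of 96 differences, 53 lost a call with the same sign, 22 gained one, and 3 lost a call and changed sign. These 3 were Fcer1g with the library set as a term, at 0.047 in Tbet KO minus total T, 0.2042 in IL-17AF KO minus total T and 0.2229 in IFNg KO minus no T, none called. A further 72 values changed sign where neither was called.

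The number of the 6 members called moved as follows, and the cause was not tested. With set B alone it was 1 in place of 4 in total T minus no T, 1 in place of 3 in IL6Ra/IL21R KO minus total T and 0 in place of 1 in IL22 KO minus no T. Over all genes, 92 in place of 2663, 827 in place of 3565 and 2 in place of 1 were called, in the same order. With the set as a term it was 0 in place of 3 in Tbet KO minus total T, 1 in place of 3 in IFNg KO minus total T and 0 in place of 1 in IL-17AF KO minus total T. Calls over all genes fell too, to 6 in place of 3796, 48 in place of 4667 and 3 in place of 3178. Against no T it was 0 in place of 1 in IFNg KO and 1 in place of 2 in IL-17AF KO. There the set term left 0 in place of 1727 and 33 in place of 756 of all genes called. In females only the number of members was 1 in place of 3 in IL6Ra/IL21R KO minus total T, and 0 in place of 1 in IL22 KO minus no T and minus IL6Ra/IL21R KO. Of all genes, 1978 in place of 3565 were called in the first, and 0 in place of 1 in each of the others. With no filter the number of members was 3 in place of 1 in IL-17AF KO minus total T, 1 in place of 0 in IL22 KO minus total T, 2 in place of 1 in IFNg KO minus no T and 1 in place of 0 in IL-17AF KO minus Tbet KO. Calls over all genes were 3149 in place of 3178, 1219 in place of 11, 2011 in place of 1727 and 81 in place of 0. With the compared groups alone the number of members was 2 in place of 1 in IFNg KO minus no T and 0 in place of 1 in IL-17AF KO minus IFNg KO. Of all genes, 1377 in place of 1727 and 0 in place of 2 were called there.

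Leaving out 1 library at a time gave 2 to 5 members in total T minus no T, 2 to 4 in Tbet KO, 3 to 4 in IFNg KO, 3 in IL6Ra/IL21R KO, 0 to 2 in IL-17AF KO and 0 in IL22 KO minus total T. Against no T it gave 0 to 1 in IFNg KO, 0 to 2 in IL-17AF KO, 0 to 1 in IL22 KO and 0 in Tbet KO and IL6Ra/IL21R KO. It gave 0 to 1 in IL22 KO minus IL6Ra/IL21R KO and in IL-17AF KO minus IFNg KO. Calls over all genes moved too: 1717 to 2978 in total T minus no T, 2430 to 3842 in IL6Ra/IL21R KO and 1 to 792 in IL22 KO minus total T. Against no T they were 72 to 287 in IL6Ra/IL21R KO and 0 to 10 in IL22 KO. In IL22 KO minus IL6Ra/IL21R KO they were 0 to 65. With all libraries, DESeq2 called 737 genes in IL22 KO minus total T, against 11 by edgeR, and 302 in IL6Ra/IL21R KO minus no T, against 147. Groups of 2 libraries limit what a lost call shows.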

Other observations

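Of 13 immunoglobulin genes listed, 3 passed the filter on low counts, and 2 rose and 1 fell in total T against no T libraries, beside 21% of all genes called. The 2 that rose, Igkc and Ighg2b, had most of their counts in total T F2 (609 and 730). They passed the filter through that library, so their rise is not a result separate from it. Ighm fell by 0.68 ± 0.24 on the log2 scale (adjusted p = 0.043, edgeR), in the libraries where Igkc was counted. In IL6Ra/IL21R KO against total T libraries Ighm rose by 0.92 ± 0.24 (adjusted p = 0.0051). Jchain, the joining chain of secreted IgM and IgA, had counts in 4 of 5 total T libraries (at most 22) and in 1 of 6 no T libraries.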
